A study of Mus musculus with 2 samples.

Results

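*Cd44*, *Cd24a*, *Prom1*, *Thy1*, *Cd34*, *Aldh1a3*, *Abcb1a*, *Lgr5*, *Met* and *Dclk1* are known as markers of tumour-initiating cells in pancreatic cancer, and these 10 genes were followed through single-cell RNA profiles of mouse pancreatic ductal adenocarcinoma. They were taken by symbol, and each of the 10 matched exactly 1 of the 55361 features in both deposited matrices. Tumour-initiating (cancer stem) cells are operationally the cells that can seed a new tumour. They have been enriched from pancreatic tumours by surface proteins such as CD44, CD24, EpCAM and CD133 (the product of *Prom1*), by aldehyde dehydrogenase activity and by dye efflux through ABC transporters. *Met*, *Lgr5* and *Dclk1* mark candidate stem or progenitor cells of the gut and pancreas, whereas *Thy1* and *Cd34* are better known from mesenchymal, haematopoietic and endothelial cells.

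The tumours arose in KPFRR mice, whose alleles include Pdx1-Flp, Trp53 frt/frt, Rosa26 FSF-creER and Rosa26 mTmG. Both groups share this genotype, so there was no tumour-free or allele-free control. Flp recombinase under the *Pdx1* promoter acts in the pancreatic lineage, where it removes *Trp53*. The sorted library held live tumour cells sorted for high surface CD9, called CD9hi here, and the library it was set against held the whole tumour. Dissociated cells passed a sorter set for GFP or for CD9 before loading for droplet sequencing of transcript 3′ ends, and whether the whole-tumour cells were gated on GFP is not stated for that library. Neither the age and number of the mice nor any treatment was given in the sources used here. Each group was 1 library without a replicate, so no test between groups was made, and a difference between the libraries cannot be told apart from a difference between these preparations. All intervals are 95% intervals that cover counting error only.

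A filter on barcodes (500 or more genes, 1000 or more UMIs, no more than 20% mitochondrial UMIs) left 5092 CD9hi cells at a median depth of 21791.5 UMIs and 2550 whole-tumour cells at 17686 UMIs. Levels are given as CPM, the UMIs of a gene per 1 M UMIs, summed over cells. *Cd9* itself stood at 2367 CPM in CD9hi cells, against 1273 CPM in the whole tumour, in the direction of the sort. *Epcam*, an epithelial adhesion molecule, stood at 1052 CPM in CD9hi cells, against 1925 CPM in the whole tumour. *Vim*, an intermediate filament of mesenchymal cells, stood at 4862 CPM in CD9hi cells, against 1139 CPM in the whole tumour. Acinar genes summed to 143 CPM in CD9hi cells, against 39072 CPM in the whole tumour, and all 8 ductal markers were detected in both libraries. The GFP reporter had 0 UMIs in both libraries, so a gate on GFP could not be checked with it. The libraries shared 2 cell barcodes, both among the kept cells.

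Taking at least 1.5-fold as higher or lower, 5 of the 10 markers were higher in CD9hi cells (*Cd44*, *Aldh1a3*, *Abcb1a*, *Thy1* and *Cd34*), 4 were lower (*Cd24a*, *Prom1*, *Lgr5* and *Dclk1*) and *Met* was neither. Of the 9760 genes with a mean of at least 5 CPM, 17.1% were higher and 13.4% lower by the same rule. The median log2 ratio of CD9hi over whole tumour was 0.32 for the markers and 0.13 for all 9760 genes. All 10 markers passed that minimum level. These shares and this median of all genes also apply to the gene lists of the same comparison further on. The set therefore did not move as a unit. Markers used side by side to define tumour-initiating cells differed in both directions between CD9hi cells and the whole tumour. There was no library of CD9-low cells, so a lower level in CD9hi cells does not place a marker in CD9-low cells. The higher call of *Cd44* came close to the 1.5-fold limit once clusters of other cell types were left out and is not secure, as given below.

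**Figure D1:**
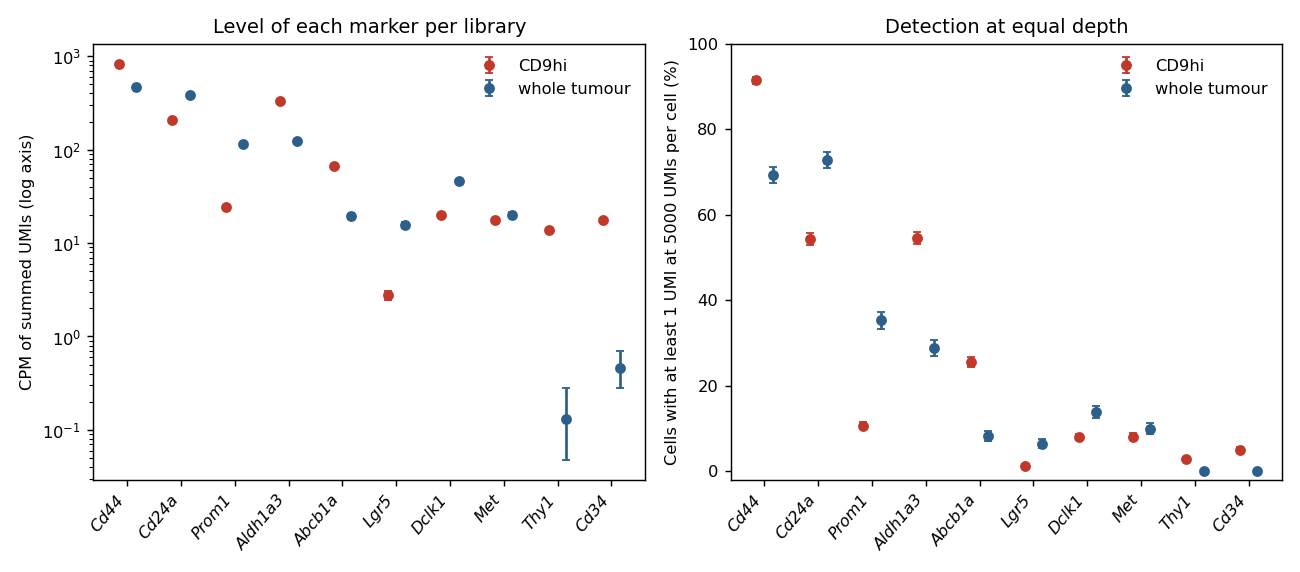
Level and detection of the 10 markers in CD9hi (red, left) and whole-tumour (blue, right) cells. The left panel shows CPM of summed UMIs on a log axis with exact Poisson intervals, and the right panel the share of cells with at least 1 UMI after every cell was thinned to 5000 UMIs, with exact binomial intervals. *Cd44*, *Aldh1a3*, *Abcb1a*, *Thy1* and *Cd34* are higher in CD9hi cells in both panels, whereas *Cd24a*, *Prom1*, *Lgr5* and *Dclk1* are lower.

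*Cd44* encodes the hyaluronan receptor CD44, whose variant exons are included by the splicing regulators Esrp1 and Esrp2. It stood at 825 CPM in CD9hi cells, against 466 CPM in the whole tumour, a log2 ratio of 0.82 (0.80 to 0.85). With the 5 clusters named as other cell types left out, that ratio was 0.64 (0.62 to 0.66), near the 1.5-fold limit of 0.58. Cluster 9, unnamed but led by acinar genes such as *Prss2* and *Ctrb1*, stayed in. Its 296 whole-tumour cells had *Cd44* at 102 CPM. Leaving that cluster out as well would raise the whole-tumour level above the 531 CPM of that comparison and lower the ratio further. The ratio itself was not calculated, so the higher call of *Cd44* is not secure. In each of the clusters shared by both libraries, described further on, *Cd44* was under 1.5-fold. After thinning to 5000 UMIs, *Cd44* was detected in 91.5% of 4978 CD9hi cells and 69.4% of 2385 whole-tumour cells, and without thinning in 98.3% and 82.5% of CD9hi and whole-tumour cells. The acinar-like cluster, with a median of 16187 UMIs, gave 20.6% of 320 cells at the same thinned depth. *Cd44* was thus found in nearly every CD9hi cell, well above the share in acinar-like cells.

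Among 12 genes of hyaluronan metabolism and CD44 partners, 10 passed the minimum level, of which 4 were higher and 5 lower in CD9hi cells (median log2 -0.01). The synthase *Has2* stood at 28.8 CPM in CD9hi cells, against 10.1 CPM in the whole tumour (log2 1.51). The hyaluronan receptor *Hmmr* (log2 1.16) and the membrane-cytoskeleton linkers *Msn* (1.12) and *Rdx* (0.80), which bind the CD44 tail, were also higher. The hyaluronidases *Hyal1* (log2 -1.34) and *Hyal2* (-0.60), the CD44 ligand osteopontin gene *Spp1* (-0.82) and both splicing regulators were lower. *Esrp1* stood at 10.4 CPM in CD9hi cells, against 31.4 CPM in the whole tumour (log2 -1.59), and *Esrp2* at 2.53 and 9.83 CPM in CD9hi cells and the whole tumour (log2 -1.96). Counts per gene from transcript 3′ ends do not show which CD44 isoform was made.

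*Cd24a* encodes a small glycosyl-phosphatidylinositol-anchored sialoglycoprotein of epithelial and immature cells. It stood at 208 CPM in CD9hi cells, against 381 CPM in the whole tumour, a log2 ratio of -0.88 (-0.90 to -0.85). After the same thinning it was detected in 54.3% of CD9hi cells and 72.9% of whole-tumour cells (77.1% and 90.2% unthinned, CD9hi first). Acinar-like cells gave 67.2%, a share between those of the libraries.

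*Prom1* encodes CD133, a pentaspan protein of membrane protrusions. It stood at 24.2 CPM in CD9hi cells, against 116 CPM in the whole tumour, a log2 ratio of -2.26 (-2.33 to -2.20). At equal depth it was detected in 10.6% of CD9hi cells and 35.3% of whole-tumour cells (27.7% and 59.5% unthinned, CD9hi first). Acinar-like cells gave 23.8% and macrophage-like cells 6.06% of 33. *Prom1* was therefore rarer in CD9hi cells than in acinar-like cells.

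Promoter sequences were looked up for the markers because *Prom1* and *Cd34* sat at opposite ends of the *Epcam* and *Vim* axes described further on. RefSeq entries of build GRCm38.p6 matched 6 of the 10 markers with 8 start sites. The 250 bases before the start are given below, 5′ to 3′ on the gene's strand, with E-boxes (CAGGTG or its reverse complement CACCTG, bound by Snail and Zeb family repressors) and AP-1 motifs (TGANTCA, which reads as itself on the other strand) in capitals. The *Prom1* window is chr5:44101737-44101986 on the minus strand and the *Cd34* window is chr1:194938571-194938820 on the plus strand.
Prom1: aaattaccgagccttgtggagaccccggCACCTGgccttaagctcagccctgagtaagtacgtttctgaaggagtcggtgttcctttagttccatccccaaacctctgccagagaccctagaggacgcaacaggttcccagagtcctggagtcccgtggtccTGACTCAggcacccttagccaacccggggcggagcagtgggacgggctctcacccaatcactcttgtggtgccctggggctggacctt
Cd34: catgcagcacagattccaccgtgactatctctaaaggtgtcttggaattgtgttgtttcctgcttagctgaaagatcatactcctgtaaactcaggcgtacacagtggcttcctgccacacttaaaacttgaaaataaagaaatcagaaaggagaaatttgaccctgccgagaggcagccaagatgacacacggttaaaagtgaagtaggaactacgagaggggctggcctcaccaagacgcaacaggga
The *Prom1* window, that of the first of its 2 start sites, held 1 E-box and 1 AP-1 motif, and the *Cd34* window held neither. The window of the second *Prom1* start site held 0 E-boxes and 1 AP-1 motif. Of the 6 matched markers, 2 had an E-box in at least 1 window (*Prom1* and *Dclk1*) and 3 an AP-1 motif (*Prom1*, *Dclk1* and *Met*). Of all 27025 genes with such windows, 19.4% had the E-box in at least 1 window and 7.82% the AP-1 motif. Of all 32851 RefSeq promoter windows of this length, 17.2% held the E-box and 6.75% the AP-1 motif, and the motifs do not overlap in the *Prom1* window. A match is a run of letters only, and no binding was measured.

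*Aldh1a3* encodes a retinaldehyde dehydrogenase that makes retinoic acid and accounts for much aldehyde dehydrogenase activity in epithelial tumours. It stood at 333 CPM in CD9hi cells, against 123 CPM in the whole tumour, a log2 ratio of 1.43 (1.39 to 1.47). The thinned share with *Aldh1a3* was 54.6% of CD9hi cells and 28.9% of whole-tumour cells (72.4% and 42.9% unthinned, CD9hi first), against 1.25% of 320 acinar-like cells. Cells with the transcript also carried more of it, with 10.8 UMIs per detected CD9hi cell and 5.22 per detected whole-tumour cell at their own depths.

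Of 16 genes of retinoic acid and aldehyde metabolism, 9 passed the minimum level, and 4 were higher and 1 lower in CD9hi cells (median log2 0.45). *Aldh1a2*, a second retinaldehyde dehydrogenase, stood at 7.40 CPM in CD9hi cells, against 3.03 CPM in the whole tumour (log2 1.29). The binding protein *Crabp2* was higher (log2 2.36), as was the receptor *Rarg* (0.76). *Crabp1* had 2211 UMIs in CD9hi cells and 0 in the whole tumour, at least 285-fold higher against a floor of 3 UMIs per library. The retinal reductase *Dhrs3* was lower (log2 -1.70). *Aldh1a1*, another aldehyde dehydrogenase used as a stem cell marker, did not pass the minimum level, with 49 UMIs in CD9hi cells and 303 in the whole tumour.

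*Abcb1a* encodes a P-glycoprotein drug exporter. It stood at 66.1 CPM in CD9hi cells, against 19.3 CPM in the whole tumour, a log2 ratio of 1.78 (1.68 to 1.88). The thinned share with *Abcb1a* was 25.6% of CD9hi cells and 8.13% of whole-tumour cells (55.7% and 18.4% unthinned, CD9hi first), and in 0 of 320 acinar-like cells. Its close paralog *Abcb1b* stood at 46.6 CPM in CD9hi cells, against 13.1 CPM in the whole tumour (log2 1.83). Reads that could match both paralogs were not examined, so their separate levels are uncertain. Of 8 other ABC exporters, 6 passed the minimum level, and *Abcb1b* and *Abcc1* (log2 0.92) were higher while *Abcc3* (-1.74) and *Abcc4* (-0.84) were lower (median log2 0.46).

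*Lgr5* encodes the R-spondin receptor of intestinal stem cells. It stood at 2.75 CPM in CD9hi cells, against 15.6 CPM in the whole tumour, a log2 ratio of -2.50 (-2.69 to -2.31). Thinned to equal depth, it was detected in 1.29% of CD9hi cells and 6.42% of whole-tumour cells (4.54% and 14.9% unthinned, CD9hi first). Acinar-like cells, in which *Lgr5* is not a marker, gave 6.25%, and macrophage-like cells 6.06% of only 33. The whole-tumour share is an average over its clusters, the acinar-like cells among them, and lay near these values. Cluster 3, led by *Krt17* and *Krt19*, stood apart with 15.5% of 627 cells and 41.7 CPM (38.0 to 45.6). It held 45% of all *Lgr5* UMIs, with 59.4% of those of the whole tumour and 13.4% of those of CD9hi cells. The paralog *Lgr4* (log2 -2.07) was lower and *Lgr6* (0.93) higher in CD9hi cells, which were the calls among the 4 of 15 Lgr and Wnt feedback genes that passed the minimum level (median log2 -0.03). The Wnt target *Axin2* stood at 2.35 CPM in CD9hi cells, against 2.59 CPM in the whole tumour.

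*Met* encodes the receptor of hepatocyte growth factor (HGF). It stood at 17.7 CPM in CD9hi cells, against 20.1 CPM in the whole tumour, a log2 ratio of -0.18 (-0.29 to -0.07). At equal depth it was detected in 8.10% of CD9hi cells and 9.94% of whole-tumour cells (29.9% and 27.6% unthinned, CD9hi first), with 5.62% of acinar-like cells. *Met* had the ratio nearest to 0 of the 10 markers, and its level in the clusters of 50 or more cells ran up to 28.1 CPM in cluster 4. In contrast, 6 of the 9 measured genes of HGF activation and *Met* signalling were lower in CD9hi cells and 0 were higher (median log2 -1.09). These were the HGF-activating proteases *Hpn* (log2 -2.94), *St14* (-1.70) and *Hgfac* (-1.09), their inhibitors *Spint1* (-1.16) and *Spint2* (-1.13), and the adaptor *Gab1* (-0.68). *Hgf* itself stood at 1.02 CPM in CD9hi cells, against 0.238 CPM in the whole tumour, below the minimum level.

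*Dclk1* encodes a microtubule-associated kinase that marks tuft cells. It stood at 19.8 CPM in CD9hi cells, against 46.3 CPM in the whole tumour, a log2 ratio of -1.23 (-1.31 to -1.14). The thinned share with *Dclk1* was 7.98% of CD9hi cells and 13.8% of whole-tumour cells (24.8% and 28.7% unthinned, CD9hi first), against 15% of acinar-like cells, so neither library's overall share lay above that of acinar-like cells. The tuft-like cluster 17, in which 7 of 7 tuft markers passed, held 21 whole-tumour and 0 CD9hi cells. *Dclk1* stood there at 1542 CPM (1410.4 to 1683). These 21 cells gave 504 of the 2143 whole-tumour *Dclk1* UMIs, or 11.2% of those of both libraries. Without them the log2 ratio was -0.85. Cluster 4, led by *Tff2* and *Reg1*, gave 19.9% of the UMIs of both libraries at 82.2 CPM and cluster 5, described next, 17% at 42.8 CPM. Within single libraries, cluster 4 held 38.9% of the whole-tumour UMIs and cluster 5 held 32.2% of the CD9hi UMIs. *Dclk1* was therefore not limited to tuft-like cells. Of 17 tuft genes, which include those markers, 5 passed the minimum level, with a median log2 ratio of -2.87. The lipid mediator genes *Alox5ap* (log2 -3.59) and *Ltc4s* (-2.87) and the signalling regulator *Rgs13* were lower in CD9hi cells, with 1 *Rgs13* UMI in CD9hi cells and 1338 in the whole tumour. *Ptgs1*, a prostaglandin synthase, was higher (log2 2.03).

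*Thy1* encodes CD90, a surface glycoprotein of fibroblasts, T cells and neurons. It had 1635 UMIs (13.7 CPM) in CD9hi cells and 6 UMIs (0.130 CPM) in the whole tumour, a log2 ratio of 6.60 (5.59 to 8.17). At equal depth it was detected in 2.79% of CD9hi cells and in 1 of 2385 whole-tumour cells (5.68% and 0.196% unthinned, CD9hi first). *Cd34*, a sialomucin of haematopoietic, endothelial and stromal progenitors, had 2128 UMIs (17.8 CPM) in CD9hi cells and 21 UMIs (0.454 CPM) in the whole tumour, a log2 ratio of 5.26 (4.68 to 5.99). It was detected in 5.00% of CD9hi cells and in 0 of 2385 whole-tumour cells at 5000 UMIs each (11% and 0.510% unthinned, CD9hi first). Both genes had 0 UMIs in the acinar-like cluster. They had the largest ratios of the 10 markers, were found in a minority of CD9hi cells and were rare in the whole tumour. In the clusters shared by both libraries, described further on, the ratios were -1.16 for *Thy1*, with 4 UMIs in CD9hi cells and 2 in the whole tumour, and -0.13 for *Cd34*. Whether both libraries came from the same tumour is not stated in the sources used here, so a difference between tumours and the effect of the sort cannot be told apart.

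Cluster 5, with 566 CD9hi cells and 1 whole-tumour cell, held 68.3% of all *Thy1* UMIs at 62.7 CPM and 63.4% of all *Cd34* UMIs at 76.2 CPM. It was led by *Sparc*, *Prrx1* and *Col3a1* among others, had *Epcam* at 66.7 CPM and *Vim* at 6759 CPM, and stayed unnamed. The fibroblast-like cluster 18, with only 8 cells, had *Thy1* at 1030 CPM and gave 11.3% of its UMIs. All 8 fibroblast markers were detected in cluster 5, but they summed to 477 CPM there and 22280 CPM in cluster 18, with *Col1a1* at 114 CPM in cluster 5 and 9886 CPM in cluster 18. The 7 endothelial markers summed to 160 CPM in cluster 5, of which *Flt1* gave 114 CPM. The 6 pericyte or smooth muscle markers summed to 273 CPM, of which *Rgs5* gave 129 CPM and *Acta2* 91.9 CPM. *Des* had only 5 UMIs and *Myh11* 1 UMI. In cluster 18, *Acta2* stood at 991 CPM and *Rgs5* at 16.6 CPM. The leukocyte gene *Ptprc* stood at 0.168 CPM, and 5 of 7 T or NK markers, *Cd3e*, *Cd3d* and *Cd3g* among them, had 0 UMIs. All 8 ductal markers were detected in cluster 5, with a sum of 2918 CPM. Of these, *Epcam* gave 66.7 CPM, against 3660 CPM in cluster 1. Without cluster 5 the log2 ratio was 5.17 for *Thy1* and 4.02 for *Cd34*. The part of stromal cells in these values was not tested. Cluster 6, with 528 CD9hi and 0 whole-tumour cells, gave another 21.6% of the *Cd34* UMIs. It was the cluster lowest in the nuclear RNA *Malat1*, at 307 CPM against 27925 CPM in cluster 0.

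Of 20 other genes used to mark initiating or stem-like cells, 16 passed the minimum level, and 7 were higher and 3 lower in CD9hi cells (median log2 0.57). The ductal progenitor factor *Sox9* stood at 496 CPM in CD9hi cells, against 225 CPM in the whole tumour (log2 1.14). The filament gene *Nes* (log2 0.74), the laminin receptor subunit *Itga6* (0.67), the pluripotency-associated factor *Klf4* (0.59) and the sialomucin *Podxl* (0.64) were also higher, besides *Abcb1b* and *Aldh1a2*. *Podxl* was the single measured gene among 5 relatives of the prominin, sialomucin and doublecortin-like kinase families. The tetraspanin *Tspan8* (log2 -1.19), the receptor *Kit* (-2.26) and *Epcam* (-0.87) were lower. *Sox2*, a stem cell factor, fell short of the minimum mean level but had 752 UMIs in CD9hi cells and 0 in the whole tumour.

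To place the markers on the epithelial to mesenchymal axis, each library was divided by the *Epcam* and *Vim* CPM of its cells. *Vim*-high *Epcam*-low cells were set against *Epcam*-high *Vim*-low cells, with cuts at the whole-tumour medians. The *Epcam* median was 1670.4 CPM and the *Vim* median 0 CPM, so that *Vim*-high there means any *Vim* UMI. In the CD9hi library this compared 3887 with 119 cells, and in the whole tumour 581 with 642 cells. In CD9hi cells 3 markers were higher and 4 lower on the *Vim*-high side, where 13.3% of genes were higher and 19.7% lower. In the whole tumour 3 were higher and 4 lower, where 8.81% of genes were higher and 14% lower. These counts are over all 10 markers, of which 9 passed the minimum level in CD9hi cells and 8 in the whole tumour. A lower call in CD9hi cells was *Lgr5*, with 8 UMIs on the *Epcam*-high side and a log2 ratio of -0.82 (-1.74 to 0.49) that turned to 0.61 with cuts at the outer tertiles. A higher call in the whole tumour was *Cd34*, which fell short of the minimum level there. The members' median log2 ratio was 0.36 in CD9hi cells and 0.06 in the whole tumour, beside -0.07 and -0.06 over all genes in CD9hi cells and the whole tumour. With fixed cuts at 1000 *Epcam* CPM and 3000 *Vim* CPM 3 markers were higher and 4 lower in CD9hi cells (9.45% and 16% of genes), and 4 were higher and 4 lower in the whole tumour (11.5% and 18% of genes).

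*Prom1* and *Cd24a* were lower on the *Vim*-high side in both libraries. In CD9hi cells *Prom1* stood at 14.9 CPM in *Vim*-high *Epcam*-low cells and 77.2 CPM in *Epcam*-high *Vim*-low cells (log2 -2.38). In the whole tumour it stood at 50.1 CPM in *Vim*-high *Epcam*-low cells and 186 CPM in *Epcam*-high *Vim*-low cells (log2 -1.90). *Cd24a* had log2 ratios of -1.31 in CD9hi cells and -1.22 in the whole tumour. Along *Vim* bins from under 500 to at least 8000 CPM, *Prom1* fell at every step in both libraries, to 10.6 CPM in CD9hi cells and 12.1 CPM in whole-tumour cells of the highest bin. The libraries thus shared the *Prom1* slope although they differed in its level.

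*Cd44* had the opposite slope. From the lowest to the highest *Vim* bin it stood at 607, 655, 769, 853 and 1055 CPM in CD9hi cells and at 319, 645, 724, 932 and 1202 CPM in whole-tumour cells. The libraries thus differed most in the lowest *Vim* bin, and from 4000 *Vim* CPM on the order was turned, with more *Cd44* in whole-tumour cells. The acinar-like cluster 8 and cluster 9, both low in *Vim*, held 339 and 296 whole-tumour cells, with *Cd44* at 105 and 102 CPM. They held only 5 and 1 CD9hi cells. Their part in the lowest whole-tumour *Vim* bin was not tested, for *Cd44* or for the other markers. Along *Epcam* bins from under 250 to at least 2000 CPM, *Cd44* had no single direction, at 663, 1019, 1018, 970 and 844 CPM in CD9hi cells and 340, 446, 413, 334 and 614 CPM in whole-tumour cells. Between the quadrants *Cd44* was 818 CPM in *Vim*-high *Epcam*-low and 616 CPM in *Epcam*-high *Vim*-low CD9hi cells (log2 0.41), and 617 and 453 CPM in the same order in whole-tumour cells (log2 0.44), which did not reach 1.5-fold. With the fixed cuts the whole-tumour ratio was 0.89.

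With cuts at the medians or at fixed levels, *Aldh1a3* and *Dclk1* had opposite signs in the libraries, but in the clusters shared by both, an alternative chosen after seeing the data, *Dclk1* was at 2.15 in CD9hi cells and 0.60 in the whole tumour, and *Aldh1a3* at -0.25 and 0.09 in the same order. *Aldh1a3* stood at 271 CPM in *Vim*-high *Epcam*-low and 421 CPM in *Epcam*-high *Vim*-low CD9hi cells (log2 -0.64, -0.74 to -0.54), but at 170 CPM and 84.6 CPM in the same order in the whole tumour (log2 1.01, 0.90 to 1.13). Its level in CD9hi cells was 97.1 CPM under 250 *Epcam* CPM and between 416 and 573 CPM in the 4 higher *Epcam* bins. In whole-tumour cells it was 66.3 CPM under 500 *Vim* CPM and between 239 and 256 CPM in the 4 higher *Vim* bins. *Dclk1* stood at 21.5 CPM in *Vim*-high *Epcam*-low and 12.2 CPM in *Epcam*-high *Vim*-low CD9hi cells (log2 0.79), and at 29.2 and 69.6 CPM in the same order in the whole tumour (log2 -1.25). The *Epcam*-high *Vim*-low side of the CD9hi library held only 24 *Dclk1* UMIs, and the UMIs behind the shared-cluster ratios are not given. With fixed cuts, which put 926 CD9hi cells on that side, the log2 ratio of CD9hi cells was -1.15 for *Aldh1a3* and 0.60 for *Dclk1*. In the whole tumour the fixed cuts gave 0.90 for *Aldh1a3* and -1.71 for *Dclk1*.

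*Abcb1a* was higher on the *Vim*-high side of the whole tumour, at 48.3 CPM in *Vim*-high *Epcam*-low and 4.81 CPM in *Epcam*-high *Vim*-low cells (log2 3.31, 2.92 to 3.76). In CD9hi cells it stood at 67.7 and 53.8 CPM in the same order (log2 0.33). *Lgr5* was lower on that side in the whole tumour, at 8.89 and 18.4 CPM (log2 -1.05), and had only 8 UMIs on the *Epcam*-high *Vim*-low side of CD9hi cells (log2 -0.82, -1.74 to 0.49). *Met* stayed under 1.5-fold in both libraries, with log2 ratios of 0.40 in CD9hi cells and -0.25 in the whole tumour.

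*Thy1* had 1632 UMIs and *Cd34* 2120 UMIs in *Vim*-high *Epcam*-low CD9hi cells, against 0 UMIs of either in *Epcam*-high *Vim*-low CD9hi cells. Against a floor of 3 UMIs in those 119 cells they were at least 11.4-fold and at least 14.8-fold higher. In the whole tumour *Cd34* had 17 and 0 UMIs in the same order, at least 5.49-fold higher, and *Thy1* had 4 and 0 UMIs, at least 1.29-fold higher. In *Epcam* bins of CD9hi cells *Cd34* stood at 37.8 CPM under 250 *Epcam* CPM and at most 4.01 CPM above, and *Thy1* at 29.8 CPM and at most 1.60 CPM. Both genes were therefore found mainly in the CD9hi cells with the least *Epcam*, which made up 40.6% of that library and 13.6% of whole-tumour cells.

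**Figure D2:**
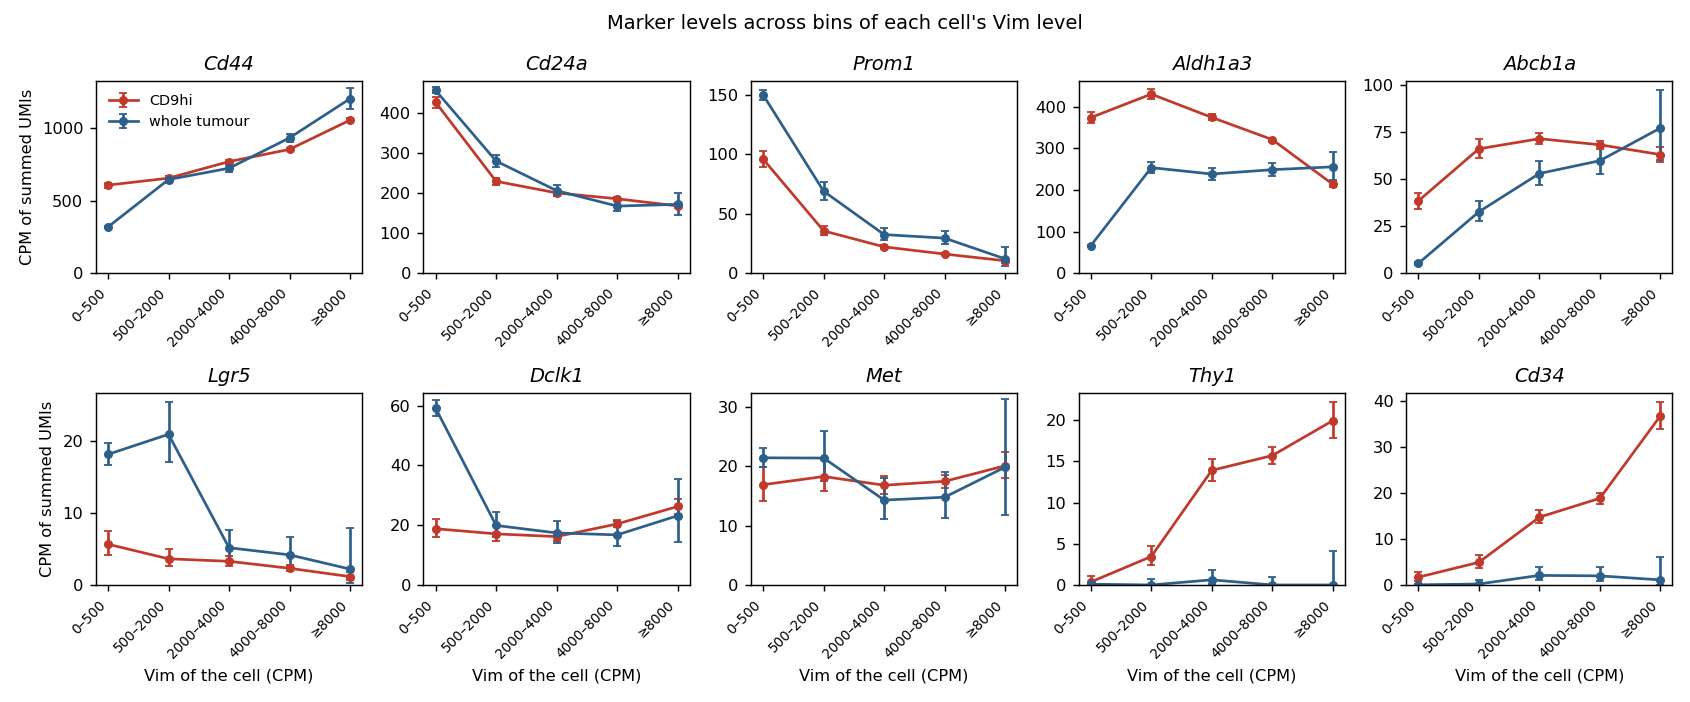
CPM of each marker (linear axes from 0, exact Poisson intervals) in cells grouped by their own *Vim* CPM, for CD9hi (red) and whole-tumour (blue) cells. *Cd44* climbs and *Prom1* falls from bin to bin in both libraries, *Met* stays between 14.3 and 21.4 CPM, and *Cd34* climbs in CD9hi cells up to 36.7 CPM, as does *Thy1* at lower levels.

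**Figure D3:**
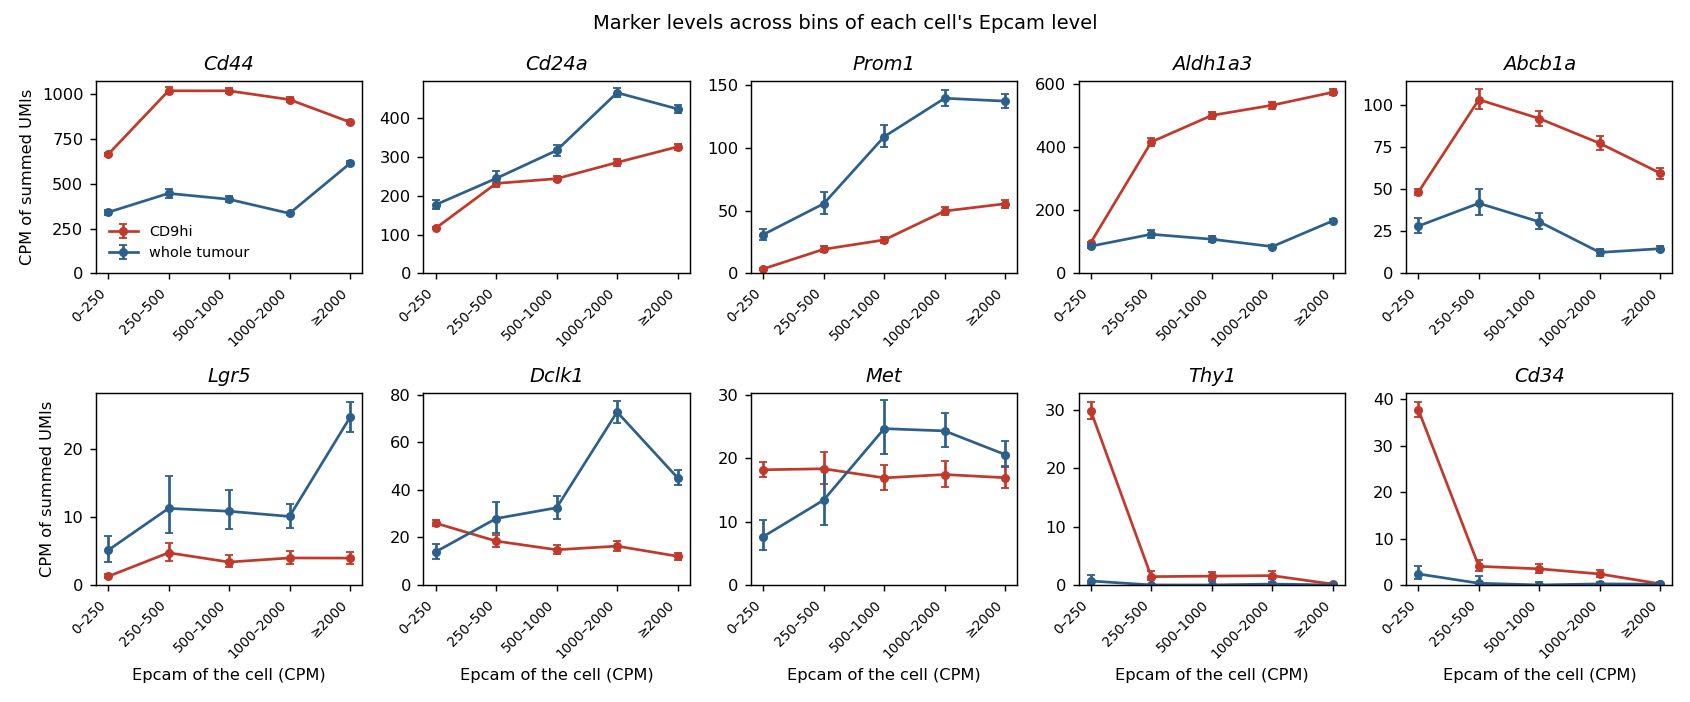
The same for cells grouped by their own *Epcam* CPM, CD9hi in red and whole tumour in blue. In CD9hi cells *Prom1* climbs with *Epcam*, *Aldh1a3* stands at 97.1 CPM in the lowest bin and at 416 CPM or more in the others, and *Thy1* and *Cd34* drop after the lowest bin.

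The sort was for CD9 protein, so the markers were also read against *Cd9* RNA within each library, between the third of cells with the most and the third with the least *Cd9* (Cd9-high and Cd9-low). In the whole tumour 8 markers passed the minimum level, of which 3 were higher and 3 lower in Cd9-high cells, where 39.5% of genes were higher and 11.3% lower. The median log2 ratio was -0.32 over all 10 markers, beside 0.42 over all genes. *Cd44* stood at 768 CPM in Cd9-high and 142 CPM in Cd9-low whole-tumour cells (log2 2.43). *Aldh1a3* stood at 261 and 20.7 CPM (log2 3.66) and *Abcb1a* at 48.8 and 1.24 CPM (log2 5.26) in the same order. *Prom1* at 49.6 CPM in Cd9-high and 139 CPM in Cd9-low cells (log2 -1.49), *Dclk1* at 17.6 and 76.9 CPM (log2 -2.13) and *Cd24a* at 267 and 413 CPM (log2 -0.63) were lower. *Thy1*, with 1 UMI in Cd9-high and 4 in Cd9-low cells, and *Cd34*, with 14 and 5, also passed 1.5-fold but fell short of the minimum level, and the intervals of both ratios included 0. *Vim* stood at 2764 CPM in Cd9-high and 91.3 CPM in Cd9-low whole-tumour cells, so *Cd9* and *Vim* moved together there, and their separate parts in the marker levels were not tested.

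The acinar-like cluster 8 and cluster 9 held 519 of the Cd9-low and 16 of the Cd9-high whole-tumour cells. With these clusters left out at the same cuts, an alternative chosen after seeing the data, 834 Cd9-high and 331 Cd9-low cells remained, where 16.6% of genes were higher and 22.8% lower. The log2 ratio was then 1.41 for *Cd44*, 2.33 for *Aldh1a3* and 4.34 for *Abcb1a*, so these ratios were smaller without the acinar cells. It was -2.58 for *Prom1*, -3.36 for *Dclk1* and -1.26 for *Cd24a*, each further from 0 than with them. *Lgr5* (-0.61) and *Met* (-0.69) also passed 1.5-fold without these clusters, against -0.45 and -0.19 with them, and *Cd34*, with 14 UMIs in Cd9-high and 5 in Cd9-low cells, turned to -0.29 with an interval that included 0.

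Within CD9hi cells, 2 markers were higher and 3 lower in Cd9-high cells, where 1.84% of genes were higher and 6.58% lower. Cd9-low cells ended at 1708 *Cd9* CPM there and Cd9-high cells began at 2757 CPM, against 432 and 1296 CPM in the whole tumour. *Abcb1a* stood at 90.9 CPM in Cd9-high and 42.4 CPM in Cd9-low cells (log2 1.10) and *Aldh1a3* at 426 and 248 CPM (log2 0.78) in the same order. *Prom1* (log2 -1.08), *Lgr5* (-1.15) and *Dclk1* (-0.87) were lower, while *Thy1* (0.23) and *Cd34* (0.06) stayed under 1.5-fold. The median log2 ratio was 0.00 over the markers and -0.13 over all genes. *Aldh1a3*, *Abcb1a*, *Prom1* and *Dclk1* thus kept, within both libraries, the direction they had between CD9hi cells and the whole tumour. In CD9hi cells *Vim* stood at 5099 CPM in Cd9-high and 4576 CPM in Cd9-low cells.

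Clustering both libraries together gave 19 clusters, whose levels are a description, since the markers took part in the clustering. *Cd44* was highest in clusters 7 (1291 CPM) and 0 (1120 CPM) and lowest in cluster 9 (110 CPM) and the acinar-like cluster 8 (119 CPM). Among clusters of 50 or more cells, *Prom1* (294 CPM) and *Cd24a* (626 CPM) were highest in cluster 4, which is led by gastric-type genes such as *Tff2*, *Gkn3* and *Tff1*. *Aldh1a3* was highest in clusters 0, 1 and 2, at 602, 555 and 426 CPM, although *Epcam* stood at 931, 3660 and 737 CPM in them. *Abcb1a* stood at 116 CPM in cluster 11 and 113 CPM in cluster 0, whose intervals overlapped. The markers therefore peaked in different clusters, with *Prom1* and *Cd24a* in one place, *Aldh1a3* and *Abcb1a* in another and *Thy1* and *Cd34* in a further one.

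**Figure D4:**
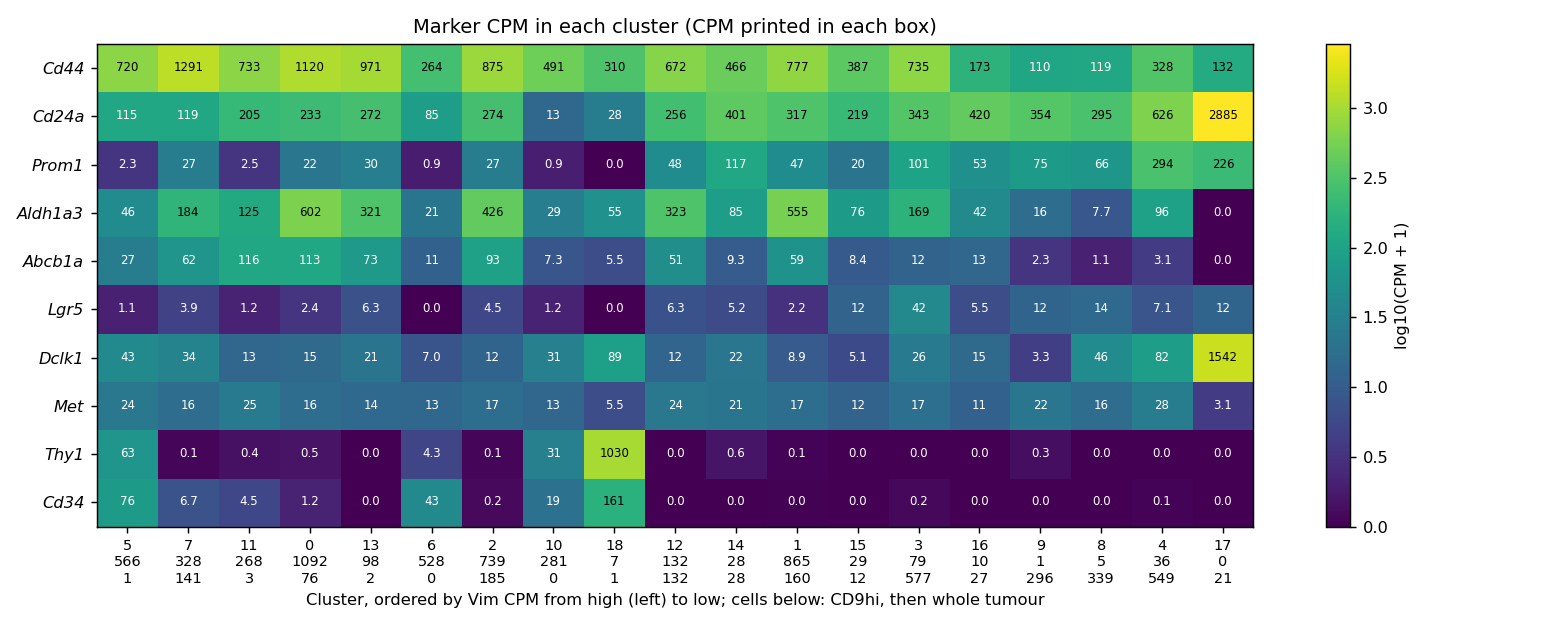
CPM of the 10 markers (rows) in the 19 clusters (columns, ordered by *Vim* CPM from high at the left), with the number of CD9hi cells and then of whole-tumour cells below each cluster and colour on a log10(CPM + 1) scale. Clusters 5, 6 and 10, nearly all CD9hi cells, hold most *Thy1* and *Cd34* UMIs, and cluster 17, with 21 whole-tumour cells, has the highest *Dclk1* at 1542 CPM.

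Over the 15 clusters of at least 50 cells, the level patterns of *Cd44* and *Abcb1a* were alike (Pearson r = 0.87 across clusters, of log2(CPM + 1)). So were those of *Thy1* and *Cd34* (0.85), *Cd44* and *Aldh1a3* (0.84), *Aldh1a3* and *Abcb1a* (0.83) and *Cd24a* and *Prom1* (0.82). *Prom1* and *Cd34* were the most opposed pair (-0.86). Clusters share libraries and depth, so these values describe and do not test. Among 5509 genes, those most like *Prom1* were *Esrp1*, *Cldn7* and *Tmc4* (0.97 each). Most like *Cd24a* were *Ptprf* (0.95), *Rap1gap* (0.93) and *Tmem141* (0.91), and most like *Cd44* were *Chsy1* (0.98), *Cdc27* (0.98) and *Wls* (0.97). The nearest genes to *Aldh1a3* were *Slc30a9* (0.96), *Vamp5* (0.95) and *Slc9a3r1* (0.95), and those to *Abcb1a* were *Tmem106b*, *Tgfb1* and *Galnt1* (0.94 each). *Col3a1* was nearest to *Thy1* (0.85) and to *Cd34* (0.91), followed by *Prrx1* (0.85) and *Srm* (0.84) for *Thy1* and *Nefl* (0.91) and *Tgfbi* (0.90) for *Cd34*. *Lgr5* was nearest to *Gc* (0.90), *Ltb* (0.88) and *Tmem205* (0.87). *Dclk1* (*Blmh*, 0.81, *Nfix*, 0.80, and *P4hb*, 0.70) and *Met* (*Ltbr*, 0.81, *Prkab1*, 0.79, and *Gfpt1*, 0.74) had no gene as close.

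The libraries differed in their cluster make-up, so the markers were also compared within the 4 clusters that held at least 100 cells of each library (clusters 1, 2, 7 and 12), which together held 2064 CD9hi and 618 whole-tumour cells. Summed over these clusters, the log2 ratio of CD9hi over whole tumour was 0.94 for *Aldh1a3*, 0.55 for *Abcb1a* and 0.28 for *Cd44*. It was 0.31 for *Cd24a*, 0.01 for *Prom1*, 0.15 for *Lgr5*, -0.27 for *Dclk1*, -0.09 for *Met*, -0.13 for *Cd34* and -1.16 for *Thy1*. *Aldh1a3* alone among the markers with over 10 UMIs on each side passed 1.5-fold. The differences of *Prom1*, *Cd24a*, *Lgr5* and *Dclk1* between the libraries were thus under 1.5-fold in the clusters they share, and the choice of these clusters was made after the data were seen.

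Cluster by cluster, 2 markers were higher in CD9hi cells and 0 lower within cluster 1, where 9.93% of genes were higher and 7.46% lower. Within cluster 2 it was 1 higher and 0 lower (11.8% and 6.66% of genes), within cluster 7 it was 1 higher and 0 lower (8.57% and 5.7%), and within cluster 12 it was 2 higher and 0 lower (12.5% and 9.5%). *Aldh1a3* stood at 600 CPM among CD9hi cells of cluster 1, against 278 CPM among its whole-tumour cells (log2 1.11, 1.01 to 1.22), and was higher in clusters 2 (0.93) and 12 (0.70), but stood at 167 CPM in CD9hi cells of cluster 7, against 224 CPM in its whole-tumour cells (log2 -0.43, -0.57 to -0.28). *Abcb1a* was higher in CD9hi cells of cluster 1 (0.86) and cluster 7 (0.63). The remaining call was *Lgr5* in cluster 12, with 19 UMIs in CD9hi and 6 in whole-tumour cells (log2 0.99, -0.31 to 2.68). The markers' median log2 ratio was 0.16, 0.39, 0.17 and 0.27 in clusters 1, 2, 7 and 12, beside 0.05, 0.08, 0.07 and 0.07 over all genes. *Cd44* had ratios between 0.17 and 0.57 in the 4 clusters, all under 1.5-fold and all with intervals above 0. *Cd9* RNA itself had log2 ratios of 0.20, -0.59, 0.10 and -0.29 in clusters 1, 2, 7 and 12. In clusters 2 and 12 it was thus lower in CD9hi than in whole-tumour cells, past 1.5-fold in cluster 2. The within-cluster ratios of the markers therefore do not set cells high in *Cd9* RNA against cells low in it.

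Whether the same cells carried several markers was read from cells thinned to 5000 UMIs. The median number of the 10 markers detected was 3 in CD9hi cells and 2 in whole-tumour cells, and the most in a single cell was 7 in CD9hi cells and 6 in whole-tumour cells. The distributions were closer than these medians. Exactly 2 markers were detected in 25.9% of CD9hi and 27.4% of whole-tumour cells, and exactly 3 in 33.3% and 31.1% in the same order. *Cd44*, *Cd24a* and *Epcam* RNA together, the transcripts behind a classical surface definition of pancreatic tumour-initiating cells, were found in 42.3% of CD9hi cells (interval 41.0% to 43.7%), compared with 48.3% of whole-tumour cells (interval 46.3% to 50.3%), or 66.0% and 74.4% without thinning. *Cd44* with *Prom1* was found in 10.2% of CD9hi cells and 24.2% of whole-tumour cells, and *Cd44* with *Aldh1a3* in 52.7% of CD9hi cells and 26.1% of whole-tumour cells. *Prom1* with *Cxcr4*, a chemokine receptor paired with CD133 on invasive cells, was found in 0.261% and 0.629% of CD9hi and whole-tumour cells. RNA detection at this depth does not give surface protein.

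For each pair, the cells with both transcripts were divided by the number that the product of the single shares gives. Of the 45 pairs, 43 in CD9hi cells and 28 in whole-tumour cells had at least 5 cells by the product. In CD9hi cells 5 pairs reached 1.5 times the product and 9 fell to 1 over 1.5 or less, and in whole-tumour cells 2 and 4 did so. Of all gene pairs in the same range of detection, 2.94% reached 1.5 times and 3.43% fell as low in CD9hi cells, and 4.65% and 6.05% did so in whole-tumour cells.

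*Thy1* and *Cd34* were found together in 22 CD9hi cells, against 6.95 by the product (ratio 3.16). *Dclk1* was found with *Thy1* in 28 cells against 11.1 (2.53) and with *Cd34* in 39 cells against 19.9 (1.96), whereas *Prom1* was found with *Thy1* in 1 cell against 14.8 (0.07) and *Cd24a* with *Thy1* in 8 cells against 75.4 (0.11). *Lgr5* was found with *Prom1* in 15 cells against 6.81 (2.20) and with *Met* in 10 cells against 5.18 (1.93). Without cluster 5, the pairs that reached 1.5 times in CD9hi cells numbered 2. *Thy1* and *Cd34* thus lay above the product with *Dclk1* and with each other, and below it with *Prom1* and *Cd24a*.

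In whole-tumour cells *Aldh1a3* and *Abcb1a* were found together in 115 cells, against 56.0 by the product (2.05), and *Lgr5* and *Dclk1* in 35 cells against 21.0 (1.66). *Abcb1a* was found with *Lgr5* in 3 cells against 12.4 (0.24), with *Dclk1* in 10 cells against 26.7 (0.37) and with *Prom1* in 32 cells against 68.5 (0.47). *Aldh1a3* was found with *Dclk1* in 56 cells against 94.8 (0.59). *Abcb1a* thus lay above the product with *Aldh1a3* and below it with *Lgr5*, *Dclk1* and *Prom1*. With *Cd9*, which was detected in 99.5% of thinned CD9hi cells and 86.0% of thinned whole-tumour cells, the ratios were between 0.99 and 1.00 in CD9hi cells. In whole-tumour cells they were between 1.01 for *Cd24a* and 1.15 for *Abcb1a* among the 8 markers other than *Thy1* and *Cd34*, which had 1 and 0 cells. A transcript found in nearly every cell leaves no room for a higher ratio.

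**Figure D5:**
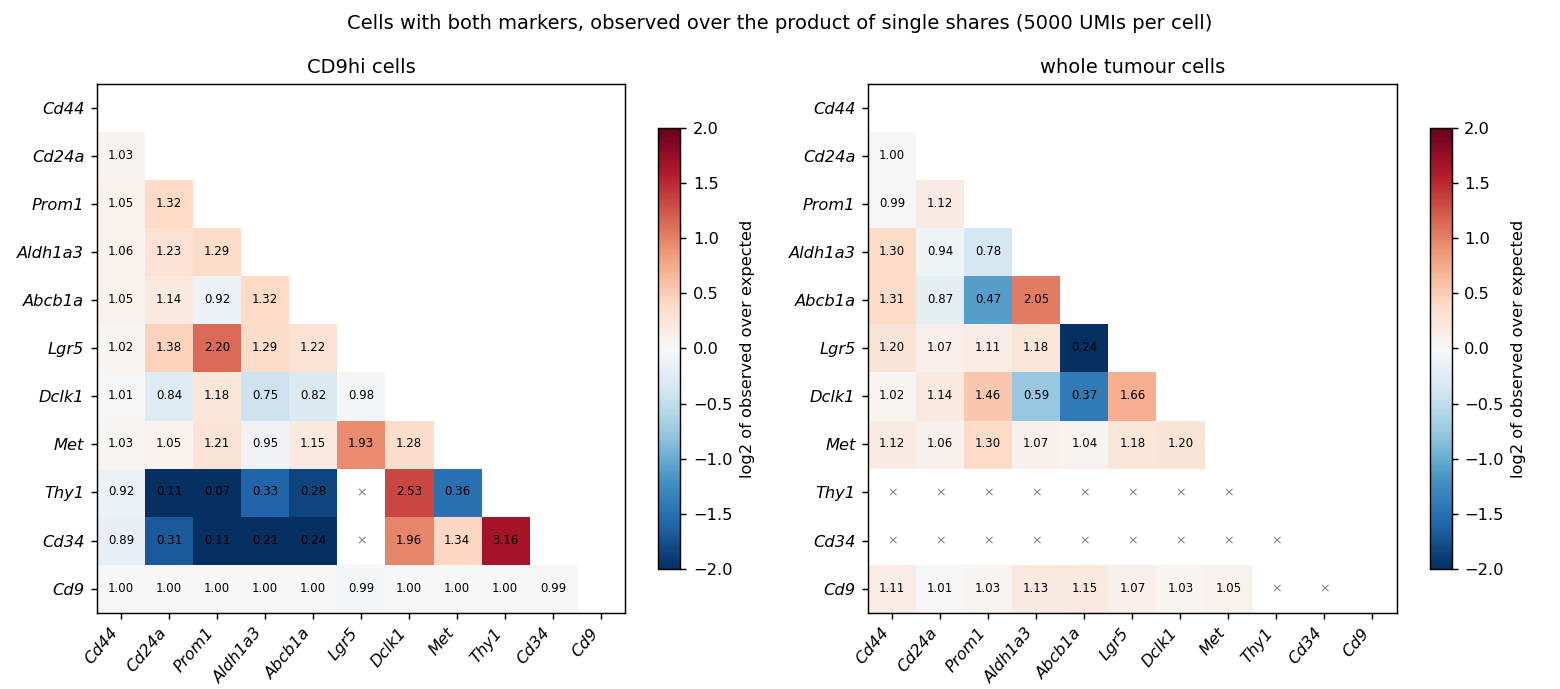
Cells with both transcripts divided by the number that the product of the single shares gives, for each pair of markers and for *Cd9*, in CD9hi (left) and whole-tumour (right) cells thinned to 5000 UMIs. Colour is the log2 of that ratio, and crosses mark pairs with under 5 cells by the product. *Thy1* and *Cd34* are below 1 with *Cd24a*, *Prom1*, *Aldh1a3* and *Abcb1a* and above 1 with *Dclk1* and each other in CD9hi cells, and *Aldh1a3* with *Abcb1a* has the highest ratio, 2.05, in whole-tumour cells.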

How the data were processed

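The authors deposited raw UMI counts per gene and barcode, with no normalization, per the file headers. The submitters' processing notes name Cell Ranger 7.0.0 and build GRCm39, but version 6.1.2 is named in the matrices, per the file headers. Whether introns were counted is not stated in those notes or headers. The libraries held 5500 CD9hi and 3082 whole-tumour barcodes with 120451299 and 48287984 UMIs, of which 408 and 532 barcodes failed the filter.

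Cells were grouped by the sorted population named in the labels. Counts were summed over cells with 0.5 counts added for ratios, and at least 1.5-fold counted as higher or lower as a rule of size. Against 0 counts a floor of 3 counts was used. Detection was read after each cell was thinned to 5000 UMIs, which left out 114 CD9hi and 165 whole-tumour cells. Intervals are exact Poisson, conditional binomial or Clopper-Pearson.

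Clustering of both libraries used scanpy 1.11.5 with no integration step, on log values of counts scaled to 10000 UMIs (2000 variable genes, 30 components, 15 neighbours, Leiden resolution 0.8 with leidenalg 0.10.2). A cluster was named where enough markers of a list passed 50 CPM, 4 times the other cells and 10 percent of the highest cluster, a rule set after the clusters were seen. Scrublet's automatic threshold marked 1 CD9hi and 14 whole-tumour cells (0.0196% and 0.549%), so doublets were kept, and the highest scores (207 and 52 cells) were left out as an alternative. Genes were named if they were members, were called in a role list, or were among the 3 most like a member over clusters. The markers, lists and rules were chosen with earlier results of these data known. Calculations were tested on simulated data. A further allele of the mouse line is not reported here.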

Additional observations from a re-analysis of the deposited data

Results flagged for a closer look

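*Aldh1a3* had a log2 ratio of *Vim*-high *Epcam*-low over *Epcam*-high *Vim*-low cells of -0.64 in CD9hi cells and 1.01 in the whole tumour, and *Dclk1* had 0.79 in CD9hi cells and -1.25 in the whole tumour. Each stands out because it passed 1.5-fold in opposite directions in the libraries. In the clusters shared by both libraries, an alternative chosen after seeing the data, *Dclk1* was at 2.15 in CD9hi cells and 0.60 in the whole tumour, with the same sign, and *Aldh1a3* was at -0.25 in CD9hi cells and 0.09 in the whole tumour, both under 1.5-fold. The UMIs behind these shared-cluster ratios are not given. At the median cuts, the *Epcam*-high *Vim*-low side of the full CD9hi library held only 24 *Dclk1* UMIs. The difference between the libraries was not tested, since each is a single library.

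The TdTomato reporter sequence, which entered no comparison, had 10 UMIs in CD9hi cells and 6 UMIs in whole-tumour cells, above the limit of 3 that a count of 0 allows.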

How the results depend on the processing

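No paired analysis was possible because each group is 1 library and the labels give no replicate numbers, so no replicate could be left out either. Of 100 alternatives to the 8 counts, 81 stayed within 1.5 times, and the cause of the others was not tested. Cuts at the outer tertiles in place of medians gave 5 markers higher on the *Vim*-high side of CD9hi cells and turned *Lgr5* to 0.61. A 2-fold rule gave 2 lower there. The shares of all genes under these alternatives are not given, so the counts have no background beside them.

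In the shared clusters, an alternative chosen after seeing the data with fewer cells, 1 marker was higher and 1 lower in CD9hi cells, 2 were lower on the *Vim*-high side in each library, and pairs above 1.5 times fell to 0 in both. The higher call was *Aldh1a3* and the lower call *Thy1*, which had few UMIs in these clusters. The shares of all genes in these clusters together are not given beside these counts. The log2 ratios of CD9hi over whole tumour turned to 0.31 for *Cd24a*, 0.012 for *Prom1*, 0.15 for *Lgr5*, -1.16 for *Thy1* and -0.13 for *Cd34*, and the quadrant ratios to 2.29 for *Lgr5* in CD9hi cells and 0.60 for *Dclk1* in the whole tumour. The UMIs behind these quadrant ratios are not given. At the median cuts, the *Epcam*-high *Vim*-low side of the full CD9hi library held only 8 *Lgr5* UMIs. Without clusters 8 and 9 the *Cd9* ratio of *Cd34* in the whole tumour turned to -0.29.

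Pairs above the product depended on depth and rule. In CD9hi cells they were 1 at 2500 UMIs, 3 at 2 times the product, 2 at 2 or more UMIs and 2 without cluster 5, a choice made after seeing the data. In whole-tumour cells they were 4 at 2500 UMIs, 1 at 10000 UMIs, 1 without thinning, 1 at 2 times the product, 4 at 2 or more UMIs, 1 under the stricter cell filter and 1 without clusters of other types.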
